A study of Mus musculus with 8 samples.

Results

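A set of 9 genes of MHC class I antigen presentation was followed across 4 cultures of mouse embryonic stem cells (ESCs): H2-K1, H2-D1, B2m, Tap1, Tap2, Tapbp, Psmb8, Psmb9 and Nlrc5. The genes were taken by their symbols and are 9 of 20278 genes listed in the files and 9 of the 15287 genes that had enough reads to be tested (10 counts or more in 2 samples or more). RNA came from N33, an ESC line from C57BL/6J mice (C57BL/6 in the labels), with 2 replicates in each of 4 cultures, and the libraries of poly-A RNA gave single reads of 50 bases. All cultures held leukemia inhibitory factor (LIF) at 1000 U/ml. The −F culture grew in 20% fetal bovine serum on gelatin. The F culture grew in the same serum on feeders, which are mouse embryonic fibroblasts arrested with mitomycin C. The F2i culture had feeders, serum and 2i, the pair of inhibitors CHIR99021 against Gsk3β and PD0325901 against Mek. The NB2i culture had neither feeders nor serum, and its ESCs grew in N2B27 medium with CHIR99021 at 3 µM and PD0325901 at 1 µM on poly-L-ornithine and laminin. F against −F asks what feeders change in serum, and F2i against F what 2i adds on feeders. NB2i and F2i both hold 2i and differ in feeders, serum, medium and coating. From −F, NB2i differs in 2i, serum, medium and coating together, and from F in feeders as well. The parts of these in the NB2i comparisons cannot be told apart. For F2i the inhibitor concentrations are not stated separately. ESCs grown on feeders were detached and separated from them by adherence before RNA extraction. A single cell line was used, so that the spread between replicates holds no variation between lines, and the study calls its replicates biological without stating in the labels what separated them.

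MHC class I molecules display peptides from inside the cell to cytotoxic T cells and are read by natural killer cells as well. A heavy chain, here H2-K1 or H2-D1, pairs with the invariant light chain B2m. The proteasome makes the peptides, the transporter formed by Tap1 and Tap2 carries them into the endoplasmic reticulum, and tapasin (Tapbp) holds empty class I molecules at the transporter while a peptide is loaded. Interferons replace catalytic proteasome subunits by inducible ones, among them Psmb8 and Psmb9, and Nlrc5 is the transactivator that acts on class I promoters. Early embryonic cells and ESCs are known for low class I levels at the cell surface.

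By the GENCODE annotation of mm10, 7 of the 9 genes lie on chromosome 17. Tapbp is at chr17:33915899-33929292 and H2-K1 at chr17:33996017-34000347. Psmb9 (chr17:34181987-34187764), Tap1 (chr17:34187553-34197225), Psmb8 (chr17:34197721-34201454) and Tap2 (chr17:34203527-34216321) are neighbours, and Psmb9 and Tap1 overlap at their 5′ ends on opposite strands. H2-D1 is at chr17:35262730-35267499. B2m lies outside the cluster at chr2:122147686-122153083, and Nlrc5 at chr8:94434356-94527272. All are protein-coding. Their Entrez identifiers in the files are 14972 (H2-K1), 14964 (H2-D1), 12010 (B2m), 21354 (Tap1), 21355 (Tap2), 21356 (Tapbp), 16913 (Psmb8), 16912 (Psmb9) and 434341 (Nlrc5).

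Promoters are shown for the heavy chains and their light chain, because the 3 windows share a spacing of motifs although B2m lies on another chromosome, and for Psmb8, which had 0 counts in one culture. Each is the stretch of 250 bases before the RefSeq start site (GRCm38.p6), written 5′ to 3′ on the strand of the gene, and 7 of the 9 genes had an entry (not Tap2 and Nlrc5). The windows of H2-D1 and Psmb8, and those of Tapbp and Psmb9, lie inside the GENCODE spans given above. For these genes the RefSeq start site used and the GENCODE start differ. Capitals mark matches, on either strand, to the interferon-stimulated response element (ISRE, GAAA, 2 bases of any kind, GAAA), the gamma-activated site (GAS, TTCNNNGAA), TGACG (the core of a cyclic AMP response element, as in the X2 box), CCAAT and an NF-kB site (GGGA, 1 base of any kind, TTTCC).
H2-K1 (chr17:34000348-34000597, minus strand): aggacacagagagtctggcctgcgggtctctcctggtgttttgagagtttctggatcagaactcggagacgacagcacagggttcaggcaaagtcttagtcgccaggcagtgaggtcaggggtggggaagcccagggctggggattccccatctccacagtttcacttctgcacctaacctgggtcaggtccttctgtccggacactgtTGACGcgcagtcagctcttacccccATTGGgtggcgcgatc
H2-D1 (chr17:35262844-35263093, plus strand): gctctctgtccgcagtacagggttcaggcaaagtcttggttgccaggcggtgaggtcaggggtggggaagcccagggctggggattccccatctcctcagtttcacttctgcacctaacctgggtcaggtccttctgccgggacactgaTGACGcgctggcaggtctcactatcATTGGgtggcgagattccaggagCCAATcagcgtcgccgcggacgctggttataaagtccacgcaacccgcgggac
B2m (chr2:122147437-122147686, plus strand): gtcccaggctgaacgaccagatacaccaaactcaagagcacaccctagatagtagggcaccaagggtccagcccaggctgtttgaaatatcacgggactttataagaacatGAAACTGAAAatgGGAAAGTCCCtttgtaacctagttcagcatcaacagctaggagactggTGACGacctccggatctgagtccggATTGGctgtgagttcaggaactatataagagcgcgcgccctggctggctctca
Psmb8 (chr17:34197945-34198194, plus strand): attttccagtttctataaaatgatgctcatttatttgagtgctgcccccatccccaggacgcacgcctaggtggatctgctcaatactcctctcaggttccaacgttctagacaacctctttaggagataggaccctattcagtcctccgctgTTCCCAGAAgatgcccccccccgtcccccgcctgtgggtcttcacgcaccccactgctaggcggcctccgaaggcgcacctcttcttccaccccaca

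TGACG stood 25 bases before ATTGG, the reverse complement of CCAAT, in all 3 of H2-K1, H2-D1 and B2m. The first base of TGACG lay at −41, −101 and −78 from the start site and that of ATTGG at −16, −76 and −53. The same spacing on the strand of the gene occurred in 0.0578% of 32851 RefSeq promoter windows, which run from 250 bases before to 50 bases after a start site (19 windows), and it was chosen after the positions had been seen. In the B2m window a match to ISRE began at −139 and one to NF-kB at −126, and the Psmb8 window held a match to GAS at −97. Of all windows, 3.44% held ISRE, 8.3% GAS, 20.8% TGACG, 37.4% CCAAT and 0.411% NF-kB. Tap1 and Psmb9 have start sites 226 bases apart, so that their windows overlap and hold the same TGACG and the same CCAAT, and the Tapbp window held CCAAT alone. A match is a run of letters and says nothing of binding. Only exact matches were sought, so that a window without one may still hold a variant, as those of H2-K1 and H2-D1 may for ISRE and NF-kB.

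Total expected counts lay between 20129641 and 20664488 per sample, so that depth was nearly equal. FPKM (fragments per kilobase of transcript, scaled to library size) was summed over 9 markers of pluripotent cells, among them Pou5f1, Sox2 and Nanog. The sum lay between 4163 and 4607 in all 8 samples, so that every library held markers of its labelled cell type. Dppa5a made up from 43.1% (−F) to 51.6% (NB2i) of it, and single markers did change. Mean FPKM of Utf1 was 477.8 in −F, 379.6 in F, 81.55 in F2i and 47.1 in NB2i. That of Nanog was 203.6, 270.2, 473.4 and 299.2 in the same order. By the calls defined below, 1 of the 9 (Utf1) was lower in F2i than in F and 8 were not called. Fibroblast markers differed between cultures: the sum of the 6 defining ones (Col1a1, Col1a2, Col3a1, Dcn, Lum and Postn) was 3.78 and 3.35 FPKM in −F, 146.0 and 154.2 in F, 469.8 and 457.3 in F2i, and 0.67 and 0.55 in NB2i. Of the 24 fibroblast markers in the list, 4 were at 0 in both NB2i samples, among them Dcn, Lum and Postn, and Lum was at 0 in both −F samples. Over all 24 fibroblast markers the sums ran from 49.2 to 49.72 in −F, 318.5 to 334.1 in F, 804.6 to 816.7 in F2i and 184.3 to 185.9 in NB2i, where Sfrp1 made up 94.9% of the sum. Fibroblast marker RNA was thus highest in F2i and next in F, apart from Sfrp1 in NB2i. In such bulk samples fewer cells of a type and less RNA per cell cannot be told apart.

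Calls required an adjusted p under 0.05 together with a change of 2-fold or more, in the edgeR quasi-likelihood test (Benjamini-Hochberg adjusted) fitted to all 8 samples. In F against −F, 1 of the 9 genes was called, B2m, which was higher, while 7.24% of all genes were called. In F2i against F, 2 of the 9 were called, Psmb8 and Psmb9, both lower, against 13.4% of all genes. In NB2i against F2i, 3 were called, Tap1, Tap2 and Psmb8, all lower, against 19.3%. In NB2i against F, 4 were called, Tap1, Tap2, Psmb8 and Psmb9, all lower, against 27.6%. In NB2i against −F, the 2 cultures without feeders, 6 were called, against 27.2% of all genes. There B2m was higher, and Tap1, Tap2, Psmb8, Psmb9 and Nlrc5 were lower. The adjusted p alone, with no condition on size, was passed by 4 of the 9 genes in F against −F (40.2% of all genes), 5 in F2i against F (54.8%), 7 in NB2i against F2i (64.1%), 5 in NB2i against F (73.5%) and 7 in NB2i against −F (72.4%).

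The median log2 fold change of the 9 genes was −0.22 in F against −F, −0.25 in F2i against F, −0.74 in NB2i against F2i, −1.17 in NB2i against F and −1.75 in NB2i against −F, while the median of all genes was 0, −0.003, 0.02, −0.01 and 0.01. The medians are the same with Psmb8 at the bound that its counts of 0 in NB2i allow. In F2i against F, NB2i against F and NB2i against −F the median is the value of Nlrc5, a gene of few counts. With Nlrc5 left out, a choice made after seeing the data, the medians of the other 8 genes were −0.18, −0.20, −0.69, −0.85 and −1.33 in the same order. The 5 comparisons share samples and are not independent.

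**Figure D1:**
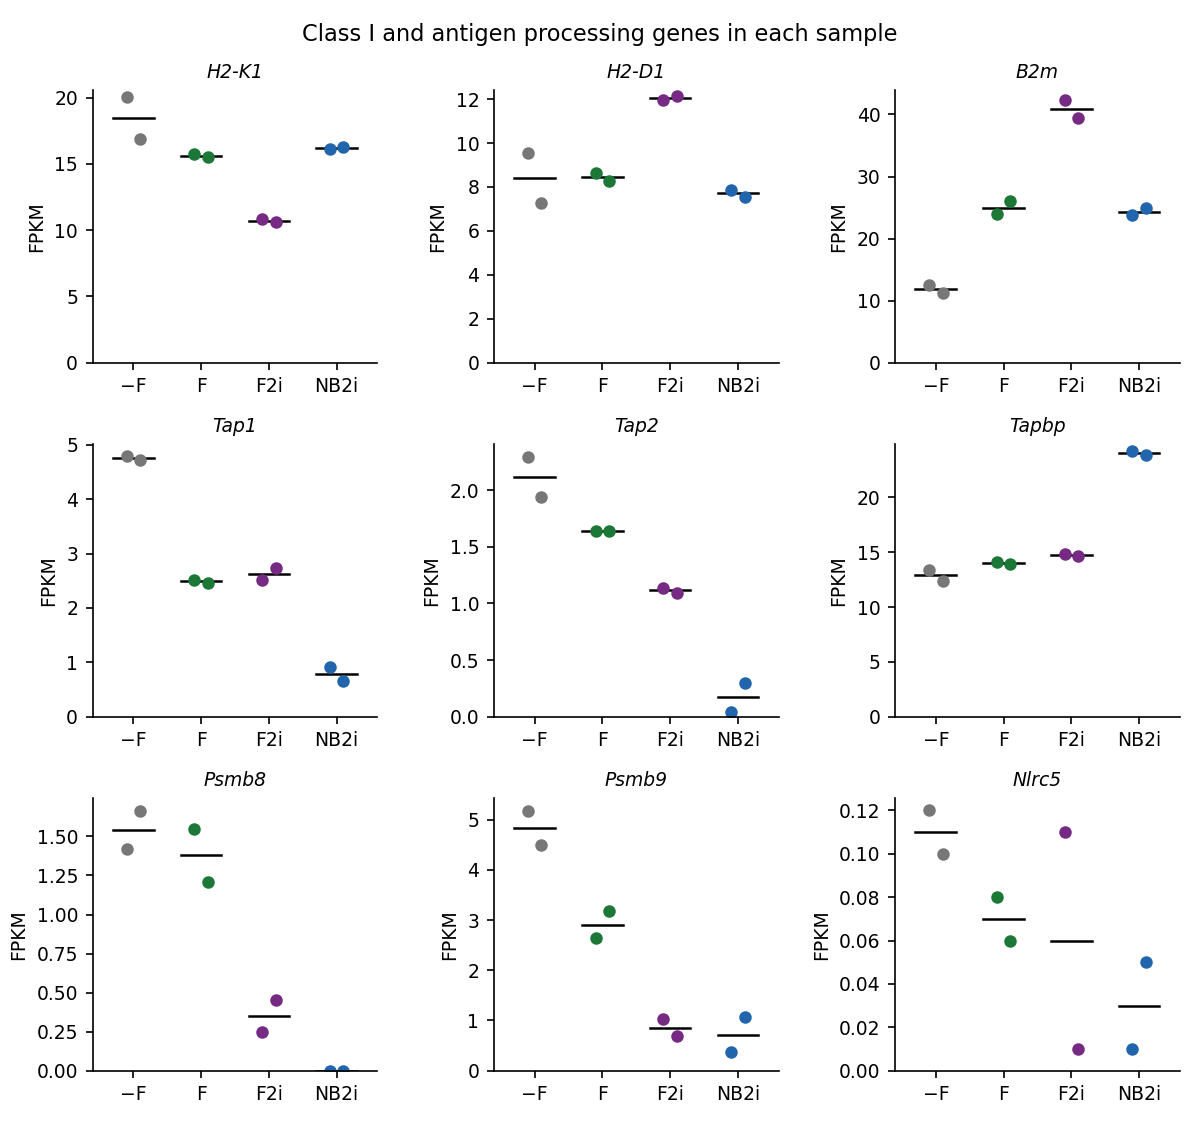
FPKM of the 9 genes in every sample, with one panel per gene, a point per replicate, a bar at the mean of the 2 replicates and a y axis from 0 that differs between panels. Psmb8 sits at 0 in both NB2i samples, B2m is highest in F2i at 42.31 and 39.4 FPKM, and Tapbp is highest in NB2i at 24.23 and 23.87 FPKM.

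In each culture H2-K1, H2-D1, B2m and Tapbp were the 4 genes with the highest FPKM, and the transporter genes, Psmb8 and Psmb9 stayed at or under 5.18 FPKM in every sample. B2m led in F (24.99 ± 1.53 FPKM, SD, n = 2), F2i (40.86 ± 2.06) and NB2i (24.33 ± 0.863), while H2-K1 led in −F (18.48 ± 2.23). In NB2i the B2m mean was closely followed by Tapbp (24.05 ± 0.255). Nlrc5 was at the bottom, with 2 to 17 expected counts per sample, except in NB2i, where Psmb8 was lower.

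H2-K1, a classical heavy chain, was measured at 20.06 and 16.91 FPKM in −F, 15.72 and 15.49 in F, 10.86 and 10.58 in F2i and 16.13 and 16.29 in NB2i. F2i was lowest, with no overlap with any other culture. By the edgeR quasi-likelihood test (Benjamini-Hochberg adjusted), H2-K1 fell from F to F2i by 0.50 on the log2 scale (standard error 0.083, adjusted p = 2.46e-05) and was higher in NB2i than in F2i by 0.60 (0.0824, 1.68e-06), both under 2-fold. From −F to F its log2 fold change was −0.22 (standard error 0.0764, adjusted p = 0.0255, edgeR), and it was lost in DESeq2 (−0.24, adjusted p = 0.105), without −F replicate 1 (−0.10, 0.396), without F replicate 1 (−0.23, 0.0743) and without F replicate 2 (−0.22, 0.0961).

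H2-D1, the other classical heavy chain of this strain, took the opposite course in F2i. Its values were 9.54 and 7.29 FPKM in −F, 8.64 and 8.26 in F, 11.96 and 12.15 in F2i and 7.88 and 7.55 in NB2i. F2i was above every other sample, and the other 3 cultures differed little, −F overlapping both F and NB2i. H2-D1 rose from F to F2i by 0.55 on the log2 scale (standard error 0.0954, adjusted p = 4.69e-05) and was lower in NB2i than in F2i (−0.64, 0.0968, 6.97e-06) by the edgeR quasi-likelihood test (Benjamini-Hochberg adjusted).

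The ratio of H2-K1 to H2-D1 in FPKM was 2.1 and 2.32 in −F, 1.82 and 1.88 in F, 0.908 and 0.871 in F2i and 2.05 and 2.16 in NB2i. H2-D1 exceeded H2-K1 in both F2i samples and in no other sample. RSEM divides reads among near-identical heavy chain genes, and the split is uncertain: of the stretches of 50 bases in the annotated transcripts, 8.79% of those of H2-K1 and 14.3% of those of H2-D1 occur unchanged in another gene, and expected counts of the 2 genes were whole in 0 of 8 samples. The fibroblast markers were also highest in F2i, at 469.8 and 457.3 FPKM for the 6 defining ones, and their part in the ratio was not tested.

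**Figure D2:**
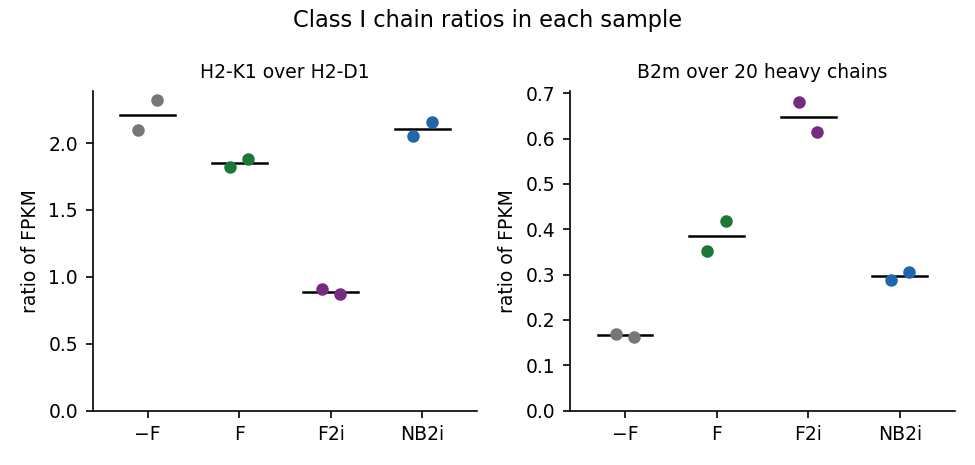
Ratios of FPKM within each sample, with points for replicates and bars for means. Left, H2-K1 over H2-D1, under 1 in both F2i samples (0.908 and 0.871). Right, B2m over the summed FPKM of 20 class I heavy chain genes, from 0.162 in −F to 0.68 in F2i.

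Summed over 20 heavy chain genes (H2-K1, H2-D1 and 18 of the H2-Q, H2-T, H2-M and H2-Bl series), which depends less on the division among them, counts were 2439.4 and 2279.9 in −F, 2183.1 and 2033.3 in F, 1975.9 and 2053.9 in F2i and 2749.4 and 2704.3 in NB2i. NB2i stood above every other sample. The sum was higher in NB2i than in F2i by the edgeR quasi-likelihood test (Benjamini-Hochberg adjusted) (log2 fold change 0.42, standard error 0.0488, adjusted p = 1.75e-07) and higher than in −F (0.27, 0.0481, 4.4e-05). It did not pass that test between F2i and F (−0.02, standard error 0.0498, adjusted p = 0.801), whereas with further heavy chain genes in the sum, added after seeing the data, it was 0.15 and passed (adjusted p = 0.0105). From −F to F it was −0.14 (0.0491, 0.0305 by the edgeR test), and without −F replicate 1 (−0.09, adjusted p = 0.206) or F replicate 2 (−0.08, adjusted p = 0.318) it did not pass. H2-K1 and H2-D1 gave 30.4% and 30.5% of the sum in NB2i and from 36.5% to 41.8% in the other samples. In NB2i against −F neither passed the edgeR test (H2-K1 −0.12, adjusted p = 0.157, and H2-D1 −0.06, 0.626). The higher sum in NB2i than in −F thus came from the other heavy chain genes.

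B2m, the light chain shared by all class I molecules, had 12.58 and 11.23 FPKM in −F, 23.91 and 26.08 in F, 42.31 and 39.4 in F2i and 23.72 and 24.94 in NB2i. Every F sample was above every −F sample and every F2i sample above every F sample, while F and NB2i overlapped. B2m rose with feeders by 2.13-fold (log2 fold change 1.09, standard error 0.0903, adjusted p = 3.03e-09) and again with 2i (0.75, adjusted p = 2.01e-08), by the edgeR quasi-likelihood test (Benjamini-Hochberg adjusted). In NB2i it was lower than in F2i (−0.74, adjusted p = 1.77e-08 in that test), higher than in −F (1.10, 4.03e-10) and did not pass the test against F (0.01, 0.957).

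Relative to the heavy chains as a whole, B2m was also highest in F2i. Its FPKM over that of the 20 heavy chain genes was 0.17 and 0.162 in −F, 0.351 and 0.418 in F, 0.68 and 0.615 in F2i and 0.288 and 0.305 in NB2i. The 4 cultures did not overlap in this ratio, and NB2i lay between −F and F. All stretches of 50 bases in the B2m transcript were its own, and its expected counts were whole in 8 of 8 samples. Summed fibroblast markers moved the same way through −F, F and F2i. Of the 24, 21 were called higher and 0 lower in F against −F, where 7.24% of all genes were called. In F2i against F 10 were called higher and 1 lower (Pdgfra), and 13 were not called, against 13.4% of all genes called. Their part in the rise of B2m with feeders was not tested. In NB2i, with Dcn, Lum and Postn at 0, B2m was at 23.72 and 24.94 FPKM, above both −F samples.

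**Figure D3:**
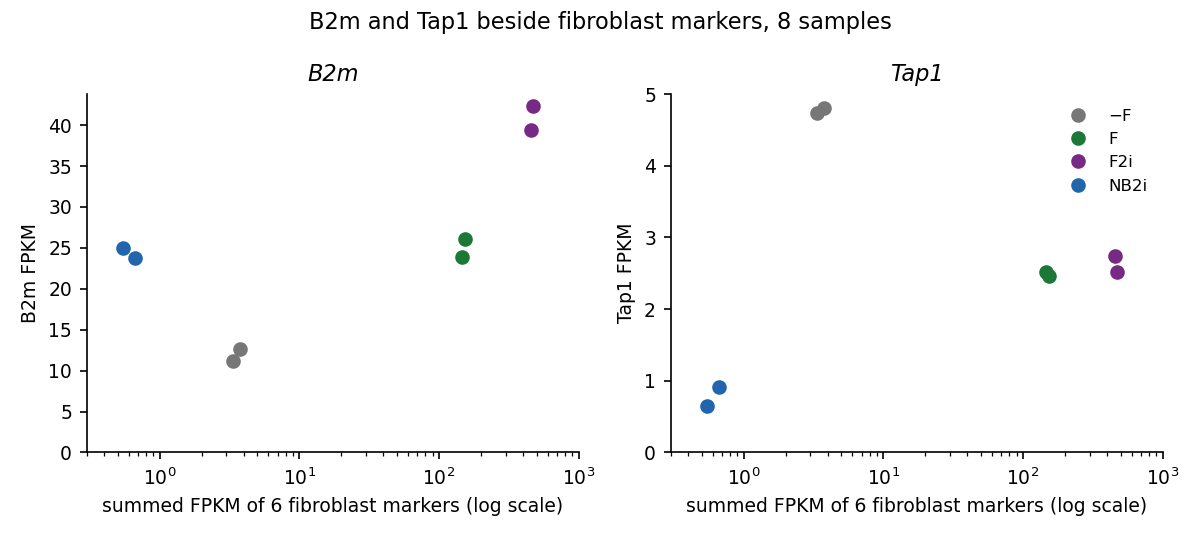
FPKM of B2m (left) and Tap1 (right) against the summed FPKM of the 6 defining fibroblast markers on a log axis, with one point per sample. Along −F, F and F2i B2m is higher and Tap1 lower or level, and the NB2i samples lie at the left with 0.67 and 0.55 FPKM of markers, 23.72 and 24.94 FPKM of B2m and 0.91 and 0.65 FPKM of Tap1.

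Tap1, the first chain of the peptide transporter, was at 4.8 and 4.73 FPKM in −F, 2.52 and 2.46 in F, 2.52 and 2.74 in F2i and 0.91 and 0.65 in NB2i. The levels formed 3 steps that did not overlap, with F and F2i together in the middle. Tap1 fell by 0.92 on the log2 scale with feeders (standard error 0.109, adjusted p = 7.69e-07), short of 2-fold, did not pass the test between F2i and F (0.12, adjusted p = 0.443), and was 3.32-fold lower in NB2i than in F2i (log2 fold change −1.73, adjusted p = 2.34e-09), by the edgeR quasi-likelihood test (Benjamini-Hochberg adjusted). Against −F the NB2i level was −2.53 (adjusted p = 3e-13 in this test). The annotated transcripts of Tap1 and Psmb9 share 163 stretches of 50 bases, 12.5% of those of Psmb9, and counting without strand could not separate reads there. Expected counts were whole in 8 of 8 samples for Psmb9 and in 1 of 8 for Tap1.

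Tap2, the second chain, was at 2.29 and 1.94 FPKM in −F, 1.64 and 1.64 in F, 1.14 and 1.09 in F2i and 0.04 and 0.3 in NB2i. The 4 cultures stood in this order without overlap. The neighbouring steps from −F to F (log2 fold change −0.35, adjusted p = 0.188) and from F to F2i (−0.53, adjusted p = 0.0574) did not pass the edgeR quasi-likelihood test (Benjamini-Hochberg adjusted), and that from F2i to NB2i did (−2.72, 1.56e-06). The NB2i replicates held 2 and 15.31 expected counts, and without NB2i replicate 2 the last fold change was −4.74, without NB2i replicate 1 −1.91, both called.

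Tapbp, the tapasin gene, was highest in NB2i, where both transporter genes were lowest. It was at 13.4 and 12.41 FPKM in −F, 14.08 and 13.94 in F, 14.83 and 14.62 in F2i and 24.23 and 23.87 in NB2i. NB2i stood far above the 3 serum cultures, which lay close together. Tapbp rose from F2i to NB2i by 1.64-fold (log2 fold change 0.72, adjusted p = 4.24e-10) and lay 1.95-fold above −F (0.97, adjusted p = 1.65e-12), by the edgeR quasi-likelihood test (Benjamini-Hochberg adjusted), while F against −F (0.14, 0.0741) and F2i against F (0.11, 0.13) did not pass. Without −F replicate 1 the difference of NB2i from −F came to 1.02 and was called.

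Psmb8, an inducible catalytic subunit, was at 1.42 and 1.66 FPKM in −F, 1.55 and 1.21 in F, 0.25 and 0.45 in F2i and 0 in both NB2i samples. In NB2i it had no entry, which was taken as 0. −F and F overlapped, and F2i lay below both. Psmb8 fell from F to F2i by the edgeR quasi-likelihood test (Benjamini-Hochberg adjusted) (log2 fold change −1.94, standard error 0.371, adjusted p = 0.000164). Over both replicates there were 76 expected counts in −F, 68 in F, 17 in F2i and 0 in NB2i. With 3 counts over the group as the floor for NB2i, Psmb8 was at least 25.5-fold higher in −F, at least 22.9-fold higher in F and at least 5.76-fold higher in F2i, counting error only.

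Psmb9, a second inducible subunit, was at 5.18 and 4.5 FPKM in −F, 2.65 and 3.17 in F, 1.02 and 0.69 in F2i and 0.37 and 1.06 in NB2i. Each serum culture was separate from the next, and the NB2i samples spanned those of F2i. Psmb9 stood at −0.71 on the log2 scale from −F to F (standard error 0.232, adjusted p = 0.0184), which was lost without −F replicate 1 (−0.61, adjusted p = 0.116) or F replicate 1 (−0.58, adjusted p = 0.115) and in DESeq2 (−0.73, adjusted p = 0.159). It fell with 2i by the edgeR quasi-likelihood test (Benjamini-Hochberg adjusted) (−1.73, standard error 0.328, adjusted p = 0.00013) and did not pass the test between NB2i and F2i (−0.25, 0.638). The GAS match before Psmb8 and the TGACG and CCAAT shared by Tap1 and Psmb9 stand beside these values as a description only.

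The constitutive partners of the inducible subunits were abundant. Psmb5, Psmb6 and Psmb7, which hold the same catalytic positions as Psmb8, Psmb9 and Psmb10, lay between 144.7 and 255.1 FPKM in all samples. Psmb8 made up 0.772% and 0.983% of the FPKM of Psmb8 and Psmb5 in −F, 0.929% and 0.745% in F, 0.153% and 0.287% in F2i and 0% in NB2i. For Psmb9 with Psmb6 the shares were 2.76% and 2.51%, 1.49% and 1.95%, 0.621% and 0.421%, and 0.225% and 0.727% in the same order. For Psmb10 with Psmb7 they were 5.18% and 4.12%, 4.11% and 3.43%, 1.63% and 1.79%, and 2.74% and 2.75%. The constitutive form thus dominated in every sample, and the 2 cultures with 2i held the lowest shares at all 3 positions.

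**Figure D4:**
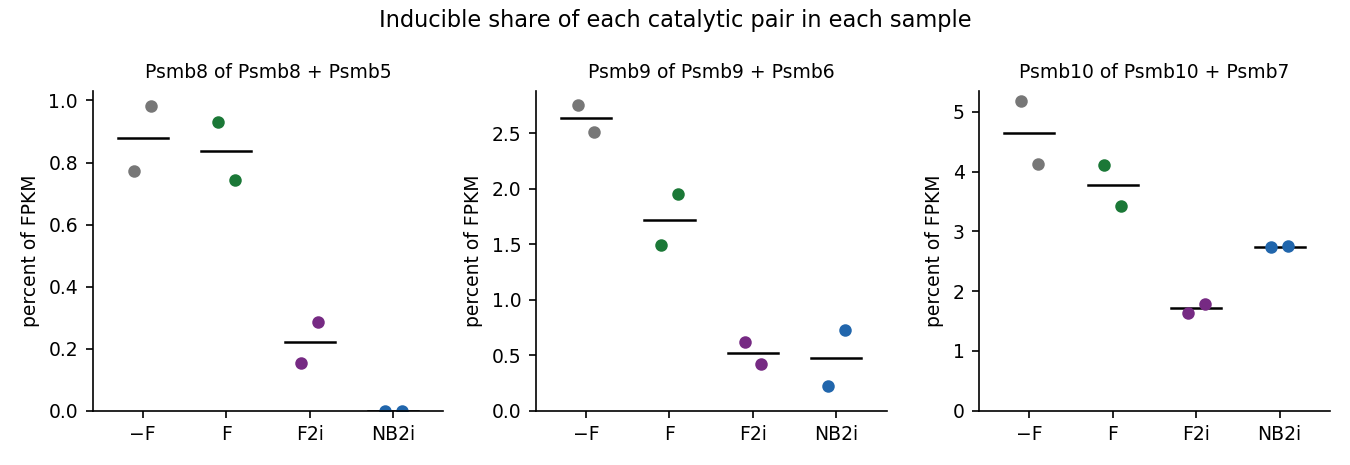
Share of the inducible gene in the summed FPKM of each inducible and constitutive pair, in percent, with a point per replicate and a bar at the mean. The highest share is 5.18% (Psmb10, −F), and Psmb8 is at 0 in both NB2i samples.

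Of the 14 constitutive proteasome genes tested, 0 were called in any of the 5 comparisons by edgeR, and 0 by DESeq2 and limma. Of all genes, edgeR called from 7.24% to 27.6%. At an unadjusted p under 0.05 there were 0 higher and 3 lower in F against −F, 3 and 3 in F2i against F, 2 and 1 in NB2i against F2i, 5 and 2 in NB2i against F, and 1 and 7 in NB2i against −F. Psmb10, the third inducible catalytic subunit, was called lower in F2i than in F (9.61 to 3.895 FPKM in the mean, log2 fold change −1.26, adjusted p = 4.43e-08 by the edgeR quasi-likelihood test (Benjamini-Hochberg adjusted)). The proteasome activator genes Psme1 and Psme2, which interferon gamma also raises, were not called, at 57.1 and 48.52 FPKM for Psme1 and 39.25 and 30.3 FPKM for Psme2 in F and F2i. Both passed the adjusted p there as lower (−0.20, adjusted p = 0.0114, and −0.33, 0.000455, by edgeR). From F2i to NB2i Psmb10 (0.71, adjusted p = 0.000167 by edgeR), Psme1 (0.32, 0.000116) and Psme2 (0.96, 5.39e-11) were higher, short of 2-fold. In NB2i against −F Psmb10 was lower (−0.89, adjusted p = 4.82e-07 by edgeR), Psme2 higher (0.69, 3.61e-09), and Psme1 did not pass (0.04, 0.521).

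Nlrc5, the transactivator, was barely above zero at 0.12 and 0.1 FPKM in −F, 0.08 and 0.06 in F, 0.11 and 0.01 in F2i and 0.01 and 0.05 in NB2i. Counts over both replicates were 32, 21, 17 and 9 in that order, and F2i overlapped all other cultures. NB2i against −F alone was called (log2 fold change −1.75, adjusted p = 0.0182 by the edgeR quasi-likelihood test (Benjamini-Hochberg adjusted)), and this was lost without −F replicate 1 (−1.66, 0.0617), without NB2i replicate 1 (−1.11, 0.178) and in DESeq2 (−1.80, 0.0663). At this depth no difference was detectable in the other 4 comparisons, where adjusted p lay between 0.0649 and 0.982 over the alternatives other than glmTreat, except 0.0447 for F2i against F without F2i replicate 1 and 0.0254 for NB2i against F2i without F2i replicate 2.

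**Figure D5:**
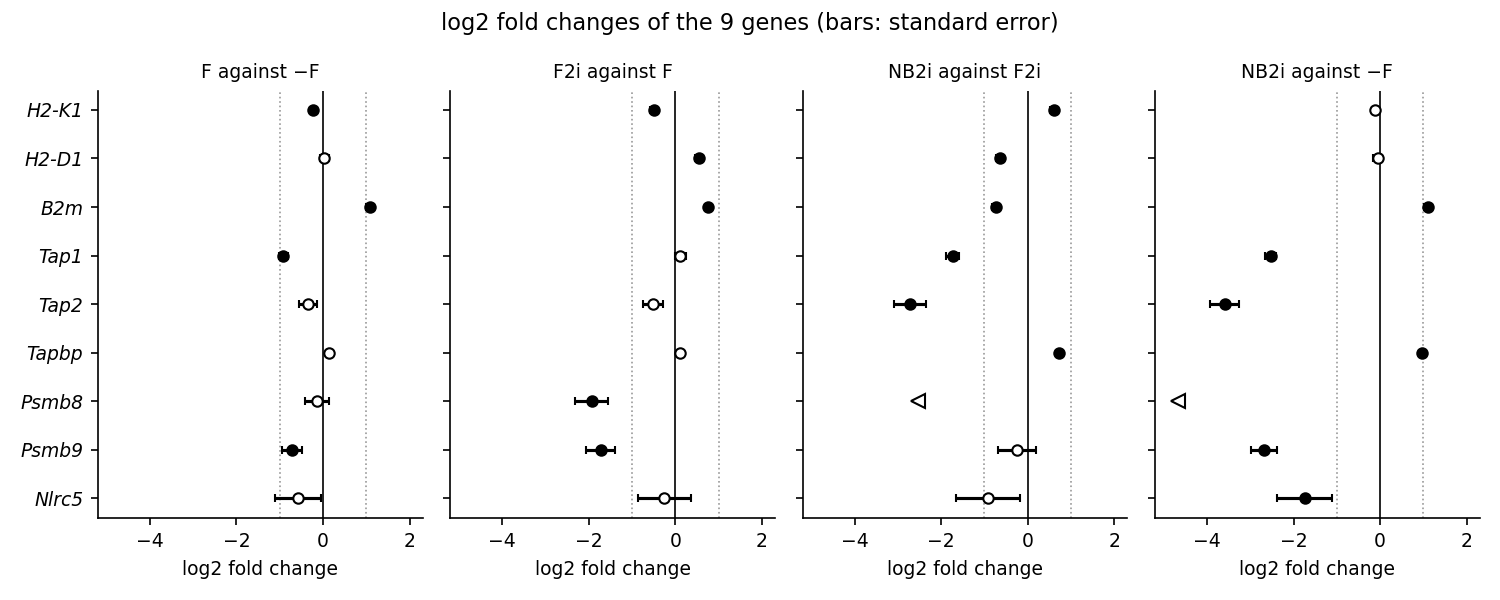
log2 fold changes of the 9 genes in 4 comparisons, with bars of 1 standard error, filled points for an adjusted p under 0.05 by edgeR, open points for the rest and dotted lines at 2-fold. Open triangles pointing left are the bounds of Psmb8, which had 0 counts in NB2i, at 5.76-fold against F2i and 25.5-fold against −F.

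The difference between cultures with and without feeders was set side by side in serum (F against −F) and in 2i (F2i against NB2i), where the medium and serum differ as well. The contrast of the 2 differences passed an adjusted p under 0.05 for 7 of the 9 genes by the edgeR quasi-likelihood test (Benjamini-Hochberg adjusted), where 48.9% of all genes passed. For Tap1 it was −2.65 (standard error 0.188, adjusted p = 1.67e-10), since Tap1 was lower with feeders in serum and higher with feeders in 2i. For Tap2 it was −3.07 (adjusted p = 4.02e-06 by edgeR), with no passing difference in serum. For Tapbp it was 0.86 and for H2-D1 −0.61, and for Psmb8, with 0 counts in NB2i, its size depends on the prior count. B2m was higher with feeders in both settings, by 1.09 in serum and 0.74 in 2i on the log2 scale.

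Other genes of the pathway came from lists drawn up around it. Of 16 other heavy chain genes tested, 0 were higher and 1 lower in F against −F, 0 higher and 2 lower in F2i against F, and 3 higher and 2 lower in NB2i against −F. Of all genes, 7.24%, 13.4% and 27.2% were called in these 3 comparisons, and the same shares stand beside the lists that follow. At an unadjusted p under 0.05, 1 was higher in F and 1 in F2i, and DESeq2 and limma called 0 higher in both. H2-Q8 was the gene lower with feeders, a call that DESeq2 and limma did not make, at 1.37 and 0.92 FPKM in −F, 0 and 0.68 in F and 0 in F2i and NB2i, and it was at least 15.3-fold higher in −F than in F2i. H2-Q1 and H2-Q8 were those lower in F2i. The call of H2-Q8 there rested on F replicate 2, without which both groups were at 0, and DESeq2 called 1 lower gene and limma on log2(FPKM + 1) 0. H2-Q1 went from 0.445 to 0.095 FPKM in the mean (log2 fold change −2.13, adjusted p = 0.00122 by the edgeR quasi-likelihood test (Benjamini-Hochberg adjusted)). H2-M3, which presents formylated peptides, was lower in NB2i than in −F (0.28 against 1.47 FPKM, −2.34), as was H2-Q8, and H2-T3 (1.89), H2-M2 (2.18) and H2-Bl (2.10, 10.94 against 2.66 FPKM) were higher. Their split of reads carries the same uncertainty as that of H2-K1 and H2-D1. The median of these 16 genes was −0.09, −0.03 and 0.37 in the 3 comparisons.

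Of 10 genes of peptide trimming, loading and endoplasmic reticulum chaperoning, 0 were called in F against −F and in NB2i against −F by edgeR, and 0 by DESeq2 and limma, with 6 higher and 0 lower in the first and 8 higher and 2 lower in the second at an unadjusted p under 0.05. In F2i against F, 1 was lower: Erap1, the aminopeptidase that trims peptides for class I, at 1.24 and 1.42 FPKM in F and 0.44 and 0.62 in F2i (log2 fold change −1.29, adjusted p = 3.63e-06 by the edgeR quasi-likelihood test (Benjamini-Hochberg adjusted)). Of 5 class I-like genes, Mr1 was called higher in F than in −F (0.295 against 0.05 FPKM, 2.55), Fcgrt, the neonatal Fc receptor that pairs with B2m, higher in F2i than in F (9.145 against 3.285 FPKM, 1.52) and higher in NB2i than in −F (2.53), and Procr (−4.75) and Hfe (−2.27) lower in NB2i than in −F. Mean counts of Mr1 were 2.5 in −F and 15 in F, and those of Hfe 5.5 in −F and 1 in NB2i. In F against −F DESeq2 called 1 higher and both limma fits 0. In NB2i against −F DESeq2 and both limma fits called 1 lower.

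Among 15 transcription factor genes that act on class I promoters or in interferon signalling, 0 were called in F against −F by edgeR, DESeq2 or limma, with 4 higher and 5 lower at an unadjusted p under 0.05. Nfkb1 was called lower in F2i than in F (15.27 and 15.14 to 7.61 and 7.12 FPKM, log2 fold change −1.01, adjusted p = 6.75e-12 by the edgeR quasi-likelihood test (Benjamini-Hochberg adjusted)) and in NB2i than in −F (−1.15). Irf8 was called lower in F2i than in F (−1.95). In NB2i against −F, Irf2 was lower (−2.08) and Irf9 higher (1.06). Of 10 genes of interferon receptors, their Janus kinases (Jak1, Jak2 and Tyk2) and cytokines (Ifng, Il15 and Tnf) in the files, 7 were tested, all receptors and kinases, and 0 called in any of the 5 comparisons by edgeR, DESeq2 or limma, and at an unadjusted p under 0.05 there were 2 higher and 0 lower in F against −F, 2 and 0 in F2i against F, 2 and 4 in NB2i against F2i, 3 and 4 in NB2i against F, and 3 and 3 in NB2i against −F. Ifng had no entry in −F, F and NB2i and was taken as 0 there.

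Of 20 interferon-stimulated genes 15 were tested, of which 3 were called higher and 1 lower in F against −F, 2 higher and 7 lower in F2i against F, and 3 higher and 8 lower in NB2i against −F, by the edgeR quasi-likelihood test (Benjamini-Hochberg adjusted). The shares of all genes called were 7.24%, 13.4% and 27.2%. DESeq2 called 2 higher and 1 lower, 2 and 7, and 3 and 7 in the same order. Limma on log2(FPKM + 1) called 0 and 0, 1 and 3, and 3 and 3, and on log2(FPKM + 0.1) 2 and 1, 2 and 4, and 3 and 6. With feeders, Oas1a (log2 fold change 1.58), Rsad2 (1.49) and Xaf1 (1.11) were higher and Ifit2 lower (−1.26). In F2i against F the largest changes were those of Oasl2 (−4.37), Gbp3 (−3.23) and Gbp2 (−3.18), the last from 2.55 and 2.14 FPKM in F to 0.18 and 0.32 in F2i. In NB2i, Gbp2 (−7.76) and Gbp3, at 0 counts there and at least 10.8-fold higher in −F, were lower than in −F, while Xaf1 was higher (4.15). The median log2 fold change of the 15 was 0.38, −0.60 and −1.43 in these comparisons.

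Of 8 genes tested whose products natural killer and T cells read, 2 were called higher in F than in −F, Cd274 (PD-L1, 1.37 on the log2 scale) and Cd80 (1.27), and 0 lower, with 0 lower at an unadjusted p under 0.05 and by DESeq2 and limma. Of all genes, edgeR called 7.24% there. DESeq2 called 2 higher there, limma on log2(FPKM + 1) 0 and limma on log2(FPKM + 0.1) 1. Raet1a (log2 fold change −1.48), Cd80 (1.14) and Cd274 (−1.12) changed most in F2i against F, and Raet1e (−3.17), Cd80 (1.83) and Raet1a (−1.81) in NB2i against −F, by the edgeR quasi-likelihood test (Benjamini-Hochberg adjusted). Of 9 class II genes in the files 5 were tested: 0 were called in F against −F by any of the tools, and 0 had an unadjusted p under 0.05, while H2-Eb1 (1.81) and H2-DMb1 (1.03) were higher in F2i than in F, and Cd74 (−2.90), H2-Ab1 (−2.39) and H2-DMb1 (4.58-fold higher) changed most in NB2i against −F. Among leukocyte markers Ptprc had 0 to 9 counts per sample, and the summed FPKM of the 10 genes, 34.66 to 34.81 in −F, 47.59 to 49.15 in F, 90.27 to 96.55 in F2i and 176.1 to 179.5 in NB2i, came mostly from Laptm5 (59.2% to 88.7%). In NB2i, Adgre1, Csf1r and Tyrobp were among those at 0. Of 7 leukocyte markers tested, Lyz2 and Adgre1 were called higher in F than in −F and Csf1r lower by edgeR. Lyz2 went from 0.025 FPKM in −F to 8.535 in F and 0.805 in F2i, and mean counts of Adgre1 from 0 to 22 and 3. Both were called lower in F2i than in F, and Cd3e (2.46) and Laptm5 (1.485) higher. The part of cells with these markers in the differences of the 9 genes was not tested.

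Endothelial markers (6 genes) summed to 21.11 to 22.43 FPKM in −F and F, 49.14 to 51.04 in F2i and 62.45 to 62.89 in NB2i, mostly from Pecam1. Of 5 tested, Tie1 (log2 fold change 1.97) was called higher and Cdh5 (−2.43) lower in F against −F by edgeR, where 7.24% of all genes were called. In F2i against F 4 were called higher, among them Vwf (2.08), against 13.4% of all genes. In NB2i against −F 3 were called higher, among them Vwf (3.55), and 1 lower, against 27.2%. Primitive endoderm markers (8 genes) summed to 12.19 to 13.72 FPKM in −F, 24.23 to 25.25 in F, 12.04 to 12.29 in F2i and 23.63 to 24.18 in NB2i, with Lama1 the highest of them. Of these 8, 6 were called higher and 0 lower in F against −F, among them Pdgfra (2.53) and Gata6 (1.68). In F2i against F 0 were called higher and 5 lower, and in NB2i against −F 2 higher and 2 lower. Their part in the differences of the 9 genes was not tested.

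The mean z-score of the 9 genes on log2(CPM + 1), where CPM is the count scaled to library size, was 0.57 and 0.22 in −F, 0.23 and 0.15 in F, 0.09 and −0.18 in F2i and −0.64 and −0.43 in NB2i. Both NB2i samples were below all others, and the ranges of −F and F overlapped. The profile was lowest in NB2i although B2m and Tapbp were higher in NB2i than in −F. Among 9424 genes of at least 5 FPKM in their highest culture, those with the most similar profile over the 8 samples were Strn3 (Pearson r 0.994), Pdcl3 (0.979), Ptbp2 (0.973), Nfyb (0.972) and Tlk1 (0.971), followed by Wtip, Fam117a, Dmc1, Rbm41 and Pianp. Strn3 went from 25.45 FPKM in −F to 20.37 in NB2i and Pianp from 21.64 to 5.59. Samples of one culture share their depth and medium, so that r over 8 samples in 4 groups is a description.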

How the data were processed

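RNA of 8 N33 ESC samples, 2 per culture, was sequenced on a BGISEQ-500 as poly-A, single-end libraries. Per the labels and methods, the authors used Bowtie2 to align reads to the genome mm10 and RSEM to assign them to genes, and deposited an RSEM expected count and an FPKM per gene for each sample. Expected counts were rounded to whole numbers (29.5% to 30.0% were not whole). With totals of 20129641 to 20664488 per sample, intervals and floors cover counting error only. Tests covered the 15287 genes that reached 10 counts in 2 or more samples, by edgeR's quasi-likelihood test in one fit of all 8 samples with TMM factors, a biological coefficient of variation of 3.25% and Benjamini-Hochberg adjustment over all tested genes. A call needed an adjusted p under 0.05 and a change of at least 2-fold. An exact permutation test of 2 against 2 samples cannot go below p = 0.3333. The study calls the replicates biological. What separated them, such as culture or passage, is not given in the labels, and p-values measure the spread between these samples. Between 17114 and 18111 genes were listed per sample, with a lowest FPKM of 0.01. A gene without an entry in a sample was taken as 0 counts and 0 FPKM. A group at 0 was set to a floor of 3 counts over the group. Levels between genes were compared in FPKM.

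The 9 genes and all lists were chosen with earlier results of these data known. The text names the 9 genes and, of each further list of pathway genes, the called genes of largest change (5 at most for F against −F, 3 at most for F2i against F and NB2i against −F). For the lists of cell type markers it gives sums and only some of the called genes, named after their values had been seen. H2-T3, H2-Bl, Psme1, Psme2 and Ptprc were named after their values had been seen. The genes most like the 9 in pattern were the 10 of highest Pearson r with their mean z-score. Alternatives were DESeq2, limma on log2(FPKM + 1) and log2(FPKM + 0.1) of genes of at least 0.5 FPKM, glmTreat at 2-fold, DESeq2's size factors in edgeR, an adjusted p under 0.01, other filters, only the groups compared, a replicate block and leaving out each sample. Correlations of same-numbered replicates' deviations were −0.03 to 0.01 over 6 pairs of groups, and the numbers did not pair the samples. Scripts were tested on simulated data. Versions were R 4.3.3, edgeR 4.0.16, DESeq2 1.42.0 and limma 3.58.1. Promoters came from RefSeq tables of GRCm38.p6.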

Additional observations from a re-analysis of the deposited data

Results flagged for a closer look

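The effect of feeders in serum (F against −F) and the difference between F2i and NB2i, in which medium and serum change as well, were compared gene by gene as one contrast of log2 fold changes in the edgeR quasi-likelihood test (Benjamini-Hochberg adjusted). Of the 9 genes 7 differed between the settings, where 48.9% of all genes did. Tap1 (−2.65, adjusted p = 1.67e-10) fell with feeders in serum and was higher in F2i than in NB2i. Tap2 (−3.07, adjusted p = 4.02e-06) was higher in F2i than in NB2i and did not pass the test in serum. For Psmb8 the contrast was −6.28, and its size depends on the prior count, since NB2i held 0 counts. H2-D1 (−0.61, adjusted p = 0.00116) was higher in F2i than in NB2i and did not pass the test in serum. Tapbp (0.86, adjusted p = 2.67e-08) and H2-K1 (0.38, adjusted p = 0.00763) were lower in F2i than in NB2i. B2m (0.35, adjusted p = 0.0179) was higher with feeders in both settings. The contrast of H2-K1 was lost in DESeq2 (0.35, adjusted p = 0.074). That of B2m was lost in DESeq2 (0.32, adjusted p = 0.148) and without replicate 2 of −F (0.27, adjusted p = 0.101), F (0.28, 0.0951), F2i (0.30, 0.0686) or NB2i (0.32, 0.0668). Feeders, medium and serum cannot be told apart in the 2i pair.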

How the results depend on the processing

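Over the alternatives, 648 values of single genes kept their side of the threshold, 24 lost and 9 gained it. Of all 681 values 16 changed sign, 0 of them with either value past the threshold. B2m's call as higher in F against −F was lost in glmTreat, which tests against 2-fold itself (0 genes), as in NB2i against −F (0 genes, also 0 with limma on log2(FPKM + 1), and 1 to 2 when single samples were left out, with 2 without −F replicate 1, where Tapbp passed). Requiring at least 10 counts in every sample removes Psmb8, Psmb9, Tap2 and Nlrc5 from the test and left 0 lower genes in F2i against F, 1 in NB2i against F2i, 1 in NB2i against F, 1 in NB2i against −F and 2 in the contrast of feeder differences. Lower genes in F2i against F were 1 in glmTreat and 1 with limma on log2(FPKM + 1), and in NB2i against F2i 1 with that limma fit. DESeq2 found 1 gene higher in the contrast. The heavy chain sum in F against −F was −0.15 in DESeq2 (adjusted p = 0.0568), −0.196 to −0.083 when single samples were left out, and −0.10 (0.124) with further heavy chain genes (H2-K2, H2-L, H2-M5, H2-M9 and the H2-M10 genes) added after seeing the data, with which F2i against F passed (0.15, adjusted p = 0.0105). With a replicate block the sum was −0.14 and the counts of called genes were those without it. Nlrc5, Tap2 and Psmb9 in NB2i rest on few reads at this depth. The cause of the other shifts was not tested.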
